A study of Mus musculus with 8 samples.

Results

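The MYC, MAX and MXD network is a set of dimerising transcription factors, taken here with Pvt1, the long noncoding RNA gene next to Myc. Its members were read by gene name from the deposited gene count table as Myc, Mycn, Max, Mxd1, Mxd3, Mxd4, Mxi1, Mnt, Mlx and Pvt1. All 10 were found once each among 43346 genes, and all 10 had enough counts to be among the 18546 genes tested. Messenger RNA was sequenced from LLC1 cells (4 libraries) and from MLE12 cells (4 libraries), both mouse lines obtained from ATCC and grown with no added agent and harvested before full confluence. LLC1 cells descend from the Lewis lung carcinoma, a tumour that arose in a C57BL animal. MLE12 cells came from a lung tumour of a transgenic mouse whose surfactant protein C promoter drove the SV40 large T antigen, so they are an immortalised epithelial line and not normal lung epithelium. Each side of the comparison is 1 cell line, and strain, tumour history and culture differ between them together.

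MYC and its relative MYCN bind DNA as dimers with MAX at the E-box, CACGTG, and activate genes for growth, ribosome production and metabolism. The MXD proteins (MXD1, MXD3, MXD4 and MXI1) and MNT also dimerise with MAX, occupy the same sites and recruit the SIN3 corepressor with its histone deacetylases, which lowers transcription. MLX is a MAX-like partner that binds the glucose-sensing factors MondoA and ChREBP as well as MXD1, MXD4 and MNT.

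RefSeq promoters (build GRCm38.p6, from 250 bases before to 50 bases after each start) were at hand for 8 of the 10 members, as 10 promoters in all. None was at hand for Myc or Pvt1, so these genes were not searched. The E-box CACGTG, which reads the same on both strands, occurred in those of 4 members, Max, Mxd4, Mnt and Mlx. It occurred in 7.15% of all 32851 promoters in the table, and in at least 1 promoter of 8.09% of the 27025 genes there. The stretches below show the site that the proteins of the network bind, in the promoters of 4 genes of the network itself; the E-box is in capitals, with 30 bases on either side, 5′ to 3′ on the strand of the gene.
Max (chr12:76962216-76962281, minus strand): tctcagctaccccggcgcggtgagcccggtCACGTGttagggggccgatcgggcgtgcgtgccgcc
Mxd4 (chr5:34187894-34187959, minus strand): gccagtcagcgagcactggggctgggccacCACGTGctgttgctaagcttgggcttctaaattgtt
Mnt (chr11:74830771-74830836, plus strand): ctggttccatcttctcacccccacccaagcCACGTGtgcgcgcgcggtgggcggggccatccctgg
Mlx (chr11:101087220-101087285, plus strand): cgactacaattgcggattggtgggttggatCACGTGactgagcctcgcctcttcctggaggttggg
The first base of the E-box lay 3 bases before the start in Max, 219 in Mxd4, 123 in Mnt and 40 in Mlx. A match of letters is not evidence of binding.

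Library totals were 46.8 to 55.3 M counts in LLC1 and 48.6 to 76.7 M counts in MLE12. A count of 0, which allows up to 3 counts, allowed a level of at most 0.0693 CPM in LLC1 replicate 1, the shallowest library. CPM are counts scaled to a common library total with TMM factors. The summed level of 4 alveolar epithelial markers (Sftpc, Sftpb, Nkx2-1, Cdh1) ran from 1.58 to 1.78 CPM in LLC1 and from 344 to 365 CPM in MLE12. Of 4 mesenchymal markers (Vim, Twist1, Col3a1, Col1a1) the sum was 5305 to 5712 CPM in LLC1 and 934 to 983 CPM in MLE12, nearly all from Vim and Col3a1, while Col1a1 went the other way (0.313 CPM in LLC1 against 17.5 CPM in MLE12). The defining blood cell gene Ptprc had no count in LLC1 and averaged 0.00663 CPM in MLE12, and Emr1 had no count in either line. Over all 4 blood cell markers the sum was 17.8 to 20.3 CPM in LLC1 and 13.7 to 16.3 CPM in MLE12. Nearly all of it came from Cd68 and Csf1r, which went opposite ways. Cd68 was higher in LLC1 (8.36 CPM in LLC1 against 2.17 CPM in MLE12) and Csf1r in MLE12 (10.5 CPM in LLC1 against 12.8 CPM in MLE12). Over 4 endothelial markers the sum was 0.456 to 0.898 CPM in LLC1 and 3.02 to 3.78 CPM in MLE12, where Tek alone averaged 2.95 CPM. Of the other 3, Cdh5 was higher in LLC1 by its mean (0.233 CPM in LLC1 against 0.0226 CPM in MLE12), with too few counts for a test. These marker sums moved with the line in every comparison below, and their part in the results was not tested.

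Myc, Pvt1, Mxi1, Mnt and, by a small margin, Max were higher in LLC1, and Mycn, Mxd4, Mxd1 and Mlx were higher in MLE12. The most abundant MYC gene was Myc in both lines. Mxd3 did not differ past the test. Of the 10 members, 9 passed an adjusted p of 0.05 in edgeR's quasi-likelihood test, 5 toward LLC1 and 4 toward MLE12. Over all genes tested, 81.6% passed the same test, 40.7% toward LLC1 and 40.9% toward MLE12, so the share of members called is near that background. When the fold change itself was tested against a minimum of 2-fold, 7 members passed, 4 toward LLC1 and 3 toward MLE12, against 33.7% of all genes (16.7% toward LLC1 and 16.9% toward MLE12). These were Myc, Pvt1, Mxi1 and Mnt, higher in LLC1, and Mycn, Mxd4 and Mxd1, higher in MLE12. The libraries of the lines did not overlap for 9 members, as for 76.3% of all genes. Log2 fold changes below are LLC1 over MLE12, ± SE, with Benjamini-Hochberg adjusted p-values over all 18546 genes from edgeR's quasi-likelihood test. In RNA from whole cultures, a change in the share of cells that express a gene and a change in its level per cell cannot be told apart.

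**Figure D1:**
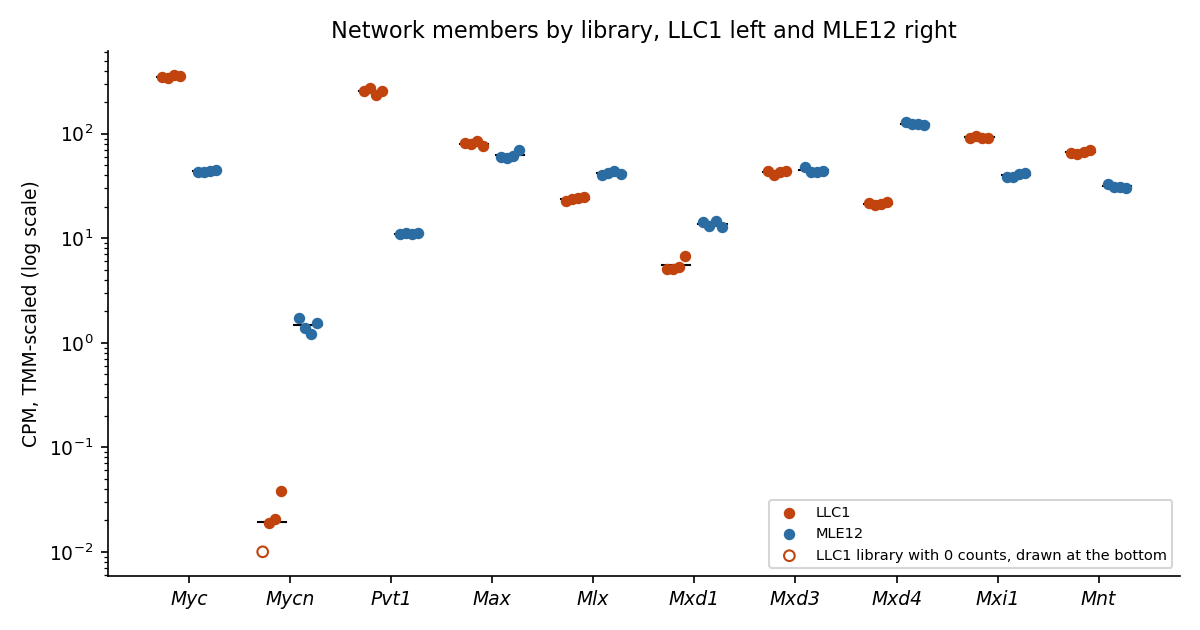
Level of each network member in every library, in TMM-scaled CPM on a log axis, with LLC1 libraries left of MLE12 libraries for each gene and a black line at each mean. Myc sits at 340 to 368 CPM in LLC1 and at 42.7 to 44.7 CPM in MLE12, Mycn is near 0 in LLC1, and Mxd3 alone has overlapping lines.

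Myc, the growth-promoting factor of the family (ENSMUSG00000022346, chr15:61985341-61990374, plus strand, mm10), had 346, 340, 368 and 357 CPM in the 4 LLC1 libraries. In the 4 MLE12 libraries it had 43.2, 42.7, 43.95 and 44.7 CPM. All LLC1 libraries stood far above all MLE12 libraries, and each line was even within itself. The means were 353 ± 12.2 CPM in LLC1 against 43.6 ± 0.883 CPM in MLE12 (SD, n = 4 each), a log2 fold change of 3.02 ± 0.04, or 8.09-fold (adjusted p = 2.4e-21).

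Mycn, the relative of Myc best known from the developing nervous system and embryonic lung (ENSMUSG00000037169, chr12:12936096-12941914, minus strand), had 0, 1, 1 and 2 counts in the LLC1 libraries. The MLE12 libraries held 133, 105, 96 and 77 counts, or 1.72, 1.39, 1.22 and 1.54 CPM. Mycn was thus at or under the detection floor in LLC1 and low but present in every MLE12 library. The level in MLE12 over that in LLC1 was 72.1, with a 95% exact counting interval from 28.0 to 266. That interval takes each count as independent, so it may be too narrow. The fitted log2 fold change was -6.04 ± 0.41 (adjusted p = 5.6e-11) and depends on the prior count, since LLC1 held 4 counts in all. Per kb of gene length, Mycn averaged 0.446 CPM in MLE12 and Myc 15.8 CPM, so Myc made up most MYC family transcript in that line too.

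Pvt1, the long noncoding RNA gene that begins 52.6 kb downstream of the Myc start on the same strand (ENSMUSG00000097039, chr15:62037986-62378096), had the largest difference toward LLC1 among the 10 members. Its LLC1 libraries had 256, 275, 234 and 256.5 CPM, and its MLE12 libraries 10.9, 11.1, 11.1 and 11.2 CPM. The LLC1 libraries varied more than those of MLE12 but stayed far above them. The log2 fold change was 4.52 ± 0.06, or 23.0-fold (adjusted p = 2.4e-22). Per unit of length, the level of Pvt1 relative to Myc was 0.251 to 0.3195 in the LLC1 libraries and 0.0994 to 0.103 in the MLE12 libraries. Pvt1 and Myc thus differed in the same direction but by unlike amounts.

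Max, the shared dimer partner (ENSMUSG00000059436, chr12:76937269-76962248, minus strand), differed little. It had 81.3, 79.7, 85.1 and 75.8 CPM in LLC1 libraries and 59.25, 58.6, 61.9 and 70.1 CPM in MLE12 libraries. The lines did not overlap, but MLE12 replicate 4 came close to the lowest LLC1 library. The log2 fold change was 0.37 ± 0.06 (adjusted p = 6.6e-06), and only 28.1% of all genes tested had a smaller absolute change.

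Mlx, the MAX-like partner (ENSMUSG00000017801, chr11:101087277-101092207, plus strand), was lower in LLC1. It had 22.9, 23.6, 24.1 and 24.9 CPM in LLC1 libraries and 40.6, 42.1, 44.3 and 41.2 CPM in MLE12 libraries, with no overlap. Its log2 fold change was -0.82 ± 0.05 (adjusted p = 2.0e-11), which did not pass the test against 2-fold (adjusted p = 1). Mlx shares 385 exonic bases with Psmc3ip on the other strand, whose log2 fold change was -0.65. Reads there cannot be told apart, since the counting strand is not given.

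Among the antagonists, Mxd4 (ENSMUSG00000037235, chr5:34173887-34187720, minus strand), a MAX partner found widely in differentiated tissues, had the largest difference. It had 21.6, 20.7, 21.2 and 22.1 CPM in LLC1 libraries and 129, 125, 124 and 121 CPM in MLE12 libraries. The lines were separated by a wide gap, and the log2 fold change was -2.54 ± 0.05 (adjusted p = 4.8e-20), a level 5.83-fold higher in MLE12. Mxd1, which is induced in many cells as they leave the cycle (ENSMUSG00000001156, chr6:86647044-86669159, minus strand), had 5.11, 5.03, 5.27 and 6.69 CPM in LLC1 libraries and 14.2, 13.1, 14.55 and 12.8 CPM in MLE12 libraries. LLC1 replicate 4 stood above the other LLC1 libraries but well below every MLE12 library. Its log2 fold change was -1.31 ± 0.09 (adjusted p = 1.8e-10).

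Mxi1, also called MXD2 (ENSMUSG00000025025, chr19:53310506-53375810, plus strand), went the other way from Mxd4 and Mxd1. It had 91.2, 94.35, 91.9 and 91.9 CPM in LLC1 libraries and 38.5, 38.7, 41.2 and 42.3 CPM in MLE12 libraries. The lines did not overlap, and the log2 fold change was 1.20 ± 0.045 (adjusted p = 5.2e-15). A gene on the other strand, Gm10197, shares 194 exonic bases with Mxi1 and had a log2 fold change of 1.19. Mnt, the broadly expressed MAX partner that opposes MYC in cycling and resting cells (ENSMUSG00000000282, chr11:74830920-74845725, plus strand), had 65.3, 64.25, 66.6 and 69.2 CPM in LLC1 libraries and 33.0, 31.1, 31.2 and 30.1 CPM in MLE12 libraries. All LLC1 libraries were higher. Its log2 fold change was 1.08 ± 0.05 (adjusted p = 5.6e-14), just past 2-fold (adjusted p = 0.041 against that minimum).

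Mxd3, the MXD gene expressed in S phase of cycling cells (ENSMUSG00000021485, chr13:55325168-55329758, minus strand), had 43.8, 40.7, 42.7 and 43.97 CPM in LLC1 libraries. MLE12 libraries had 48.3, 42.95, 42.8 and 44.1 CPM, and the lines overlapped. The log2 fold change of -0.06 ± 0.05 did not pass the test (adjusted p = 0.30). Its value depended on the scaling of the libraries. It was level between the lines with upper-quartile factors (1.0e-04, adjusted p = 1) and -0.16 with library totals alone (adjusted p = 0.016). Mxd3 shares 105 exonic bases with the abundant gene Prelid1 on the other strand, whose log2 fold change was 0.41. Reads there cannot be told apart, since the counting strand is not given, and their part in the Mxd3 value was not tested.

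**Figure D2:**
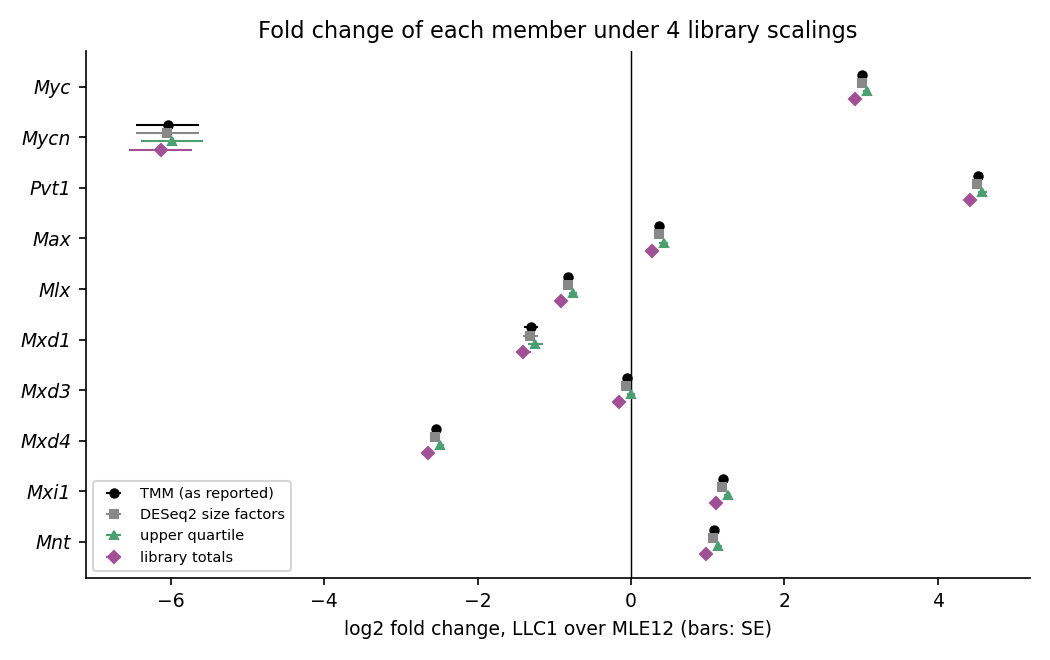
Log2 fold change of each member, LLC1 over MLE12, with its SE, under TMM factors, DESeq2 size factors, upper-quartile factors and library totals alone. Mxd3 lies near 0 and its value varies with the scaling, while the other 9 members keep their side under all 4 scalings.

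Levels of different members were compared per kb of the gene length in the deposited table. In LLC1 the order was Myc (127.5 ± 4.41 CPM per kb), Max, Pvt1, Mxd3, Mxi1, Mnt, Mlx, Mxd4, Mxd1 and Mycn. Only the neighbours Max (40.1 ± 1.92) and Pvt1 (36.5 ± 2.40) had overlapping libraries. In MLE12 it was Mxd4 (32.1 ± 0.876), Max (31.2 ± 2.64), Mxd3 (21.4 ± 1.23), Mlx (21.0 ± 0.811), Myc (15.8 ± 0.319), Mxi1 (7.15 ± 0.339), Mnt (6.77 ± 0.262), Mxd1, Pvt1 and Mycn. There Mxd4 overlapped with Max, Mxd3 with Mlx, and Mxi1 with Mnt. Myc was thus far above every partner and antagonist in LLC1 and in the middle of the order in MLE12.

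With the deposited lengths, the antagonists differed more in their makeup than in their total. Summed over Mxd1, Mxd3, Mxd4, Mxi1 and Mnt, they had 56.65 to 59.6 CPM per kb in LLC1 libraries and 69.0 to 73.4 CPM per kb in MLE12 libraries. Mxd4 made up 9.49% ± 0.0852 of this sum in LLC1 and 45.6% ± 0.660 in MLE12 (SD, n = 4 each). Mxi1 made up 28.3% in LLC1 and 10.2% in MLE12, and Mnt 24.7% in LLC1 and 9.63% in MLE12. Mxd3 was 35.4% in LLC1 and 30.4% in MLE12, and Mxd1 was 2.04% in LLC1 and 4.17% in MLE12. The sum of Myc and Mycn was 2.16 to 2.30 times the antagonists' sum in LLC1 libraries and 0.220 to 0.241 times in MLE12 libraries. These are descriptions of transcript levels with no test.

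The deposited lengths and those of the GENCODE M21 exons differ for some members, chiefly Mxd4, Max and Mxd1, which touches levels set across genes and sums over genes, but not the fold change of a single gene. With the M21 lengths Mxd4 made up 5.12% of the antagonists' sum in LLC1 and 30.6% in MLE12, and it ranked 5 instead of 1 in MLE12. The higher total of the antagonists in MLE12 was lost, with 48.05 to 50.5 CPM per kb in LLC1 libraries and 47.1 to 50.35 CPM per kb in MLE12 libraries. The Mxd3 share turned round, to 36.7% in LLC1 and 39.1% in MLE12, while the shares of Mxi1, Mnt and Mxd1 kept their direction. Myc ranked 1 in LLC1 and 4 in MLE12 with those lengths. Pvt1 (36.5 ± 2.40 CPM per kb) then stood above Max (22.4 ± 1.07) in LLC1, Mnt stood above Mxi1 in both lines, and Mlx ranked 1 in MLE12 with libraries that overlapped those of Mxd3.

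**Figure D3:**
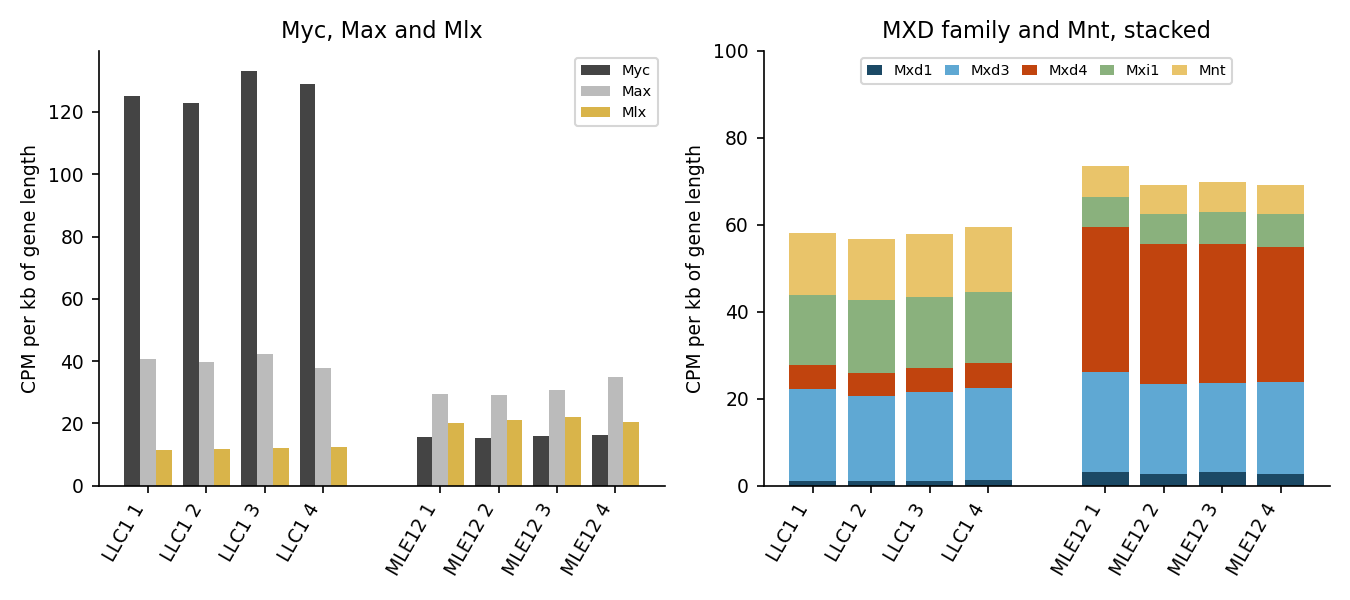
CPM per kb of deposited gene length in each library, LLC1 left and MLE12 right: Myc, Max and Mlx side by side (left panel) and the 5 antagonists stacked (right panel). Myc towers over Max in LLC1 only, and the Mxd4 share of the stack averages 9.49% in LLC1 and 45.6% in MLE12.

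The chromosome 15 neighbourhood of Myc was described over all genes whose start, meaning the lower coordinate, lies within 3 Mb of that of Myc. Of 43 such genes, 19 were tested, and all 19 were called, 15 toward LLC1 and 4 toward MLE12, against 81.6% of all genes called (40.7% toward LLC1 and 40.9% toward MLE12). The 15 include Myc, Pvt1 and the models inside Pvt1. Inside the Pvt1 gene body, 5 small gene models were tested, all 5 higher in LLC1, with log2 fold changes from 4.62 to 6.22. Among them, the noncoding model Gm27913 had 31.9 ± 2.42 CPM in LLC1 against 1.01 ± 0.108 CPM in MLE12 (4.96 ± 0.09). The noncoding model Gm27782 was low (1.99 ± 0.321 CPM in LLC1 against 0.0229 ± 0.0227 CPM in MLE12; 6.22 ± 0.38). H2afy3, a processed pseudogene on the other strand, had a log2 fold change of 5.06 ± 0.26. All but Gm27782 share exonic bases with Pvt1, 173 in Gm27913, 86 in Gm27718, 82 in Gm27957 and 109 in H2afy3. Gm27913 and Gm27718 lie wholly within exons of Pvt1 on its own strand, so they are not independent of it. Reads on the shared bases of any of these models cannot be told apart from those of Pvt1.

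Outside Myc and Pvt1 the neighbouring genes differed in both directions. Of the 12 genes tested there, 8 were called toward LLC1 and 4 toward MLE12, with a median log2 fold change of 0.36, against 0.02 over all genes tested. Of the 12, 4 passed the test against 2-fold, 2 in each direction, a share near the 33.7% of all genes. In each direction the 2 genes overlap, so they are not separate loci. The nearest tested genes on the side away from Pvt1 were Fam84b and 9930014A18Rik, at -1166 and -1163 kb from Myc. They overlap, since 9930014A18Rik lies within the coordinates of Fam84b. Fam84b, a gene of uncertain function, had 5.42 ± 0.918 CPM in LLC1 against 201 ± 4.95 CPM in MLE12 (-5.21 ± 0.08, adjusted p = 4.9e-19). For 9930014A18Rik the log2 fold change was -4.67 ± 0.11. Trib1, a pseudokinase gene farther out, had a small difference (-0.28 ± 0.05). Asap1, which encodes a GTPase-activating protein for Arf and starts 2102 kb beyond Myc, was higher in LLC1 (183 ± 8.32 CPM in LLC1 against 36.9 ± 1.07 CPM in MLE12; 2.31 ± 0.05). Gm20717, low in both lines (0.704 CPM in LLC1 against 0.0786 CPM in MLE12), lies within the coordinates of Asap1. Asap1 and Gm20717 were named after their values were seen.

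**Figure D4:**
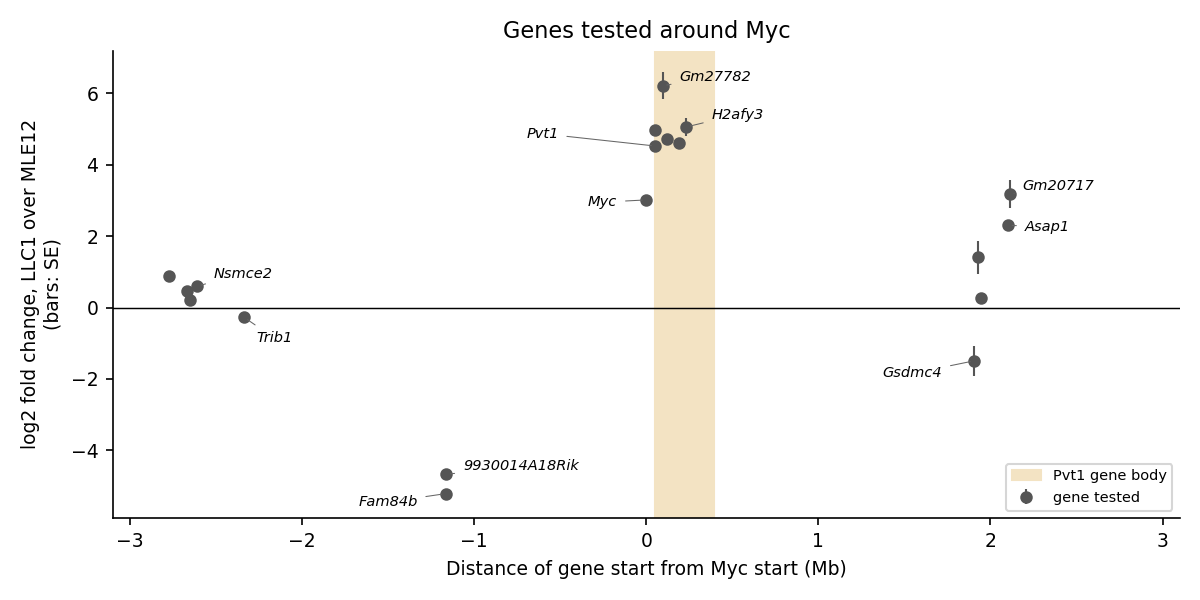
Log2 fold change, LLC1 over MLE12, with its SE, of the 19 genes tested within 3 Mb of Myc, against the distance of their start from the Myc start; the shaded band is the Pvt1 gene body. Myc and all points in the band lie between 3.02 and 6.22, while Fam84b and 9930014A18Rik lie at -5.21 and -4.67.

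The 5 genes with the pattern most like that of Myc over the 8 libraries were Cdkn1a, Pam, Abcd4, Pi4k2b and Pdk1. Likeness was the Euclidean distance between log2 CPM centred on each gene. It was taken over 10726 other genes with 10 CPM or more in LLC1 or MLE12 and a count above 0 in all 8 libraries. The distances were 0.094 for Cdkn1a, 0.131 for Pam, 0.149 for Abcd4, 0.165 for Pi4k2b and 0.174 for Pdk1. Cdkn1a, which encodes the cyclin-dependent kinase inhibitor p21, had 164 ± 5.61 CPM in LLC1 against 21.0 ± 0.509 CPM in MLE12 (2.97 ± 0.05). With 2 lines, such a likeness reflects little more than a fold change of the same size.

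Other genes of the network were mostly too low to test. Of 6 listed (Mycl, Bmyc, Mycs, Mga, Mlxip and Mlxipl), only Mga and Mlxip had enough counts to be tested. Mga, a large MAX partner, had 161 ± 16.2 CPM in LLC1 against 150.3 ± 8.09 CPM in MLE12 and did not pass the test (0.10 ± 0.06, adjusted p = 0.16). Mlxip, which encodes the MLX partner MondoA, was lower in LLC1 (48.65 ± 2.79 CPM in LLC1 against 71.7 ± 4.49 CPM in MLE12; -0.56 ± 0.05, adjusted p = 1.1e-08). Mlxipl, which encodes ChREBP, averaged 0.0290 CPM in LLC1 against 0.170 CPM in MLE12. Mycl, which encodes L-MYC, averaged 0.0889 CPM in LLC1 against 0.142 CPM in MLE12. Bmyc went the other way, with 0.160 CPM in LLC1 against 0.00647 CPM in MLE12, and Mycs had no count in either line.

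Txnip, which encodes a brake on glucose uptake and is a standard target of MondoA with MLX, was higher in LLC1, opposite to Mlx and Mlxip themselves. It had 114 ± 8.76 CPM in LLC1 against 16.96 ± 1.05 CPM in MLE12 (2.75 ± 0.06, adjusted p = 2.1e-18). The related target Arrdc4, low in both lines and named after its values were seen, had 2.96 ± 0.324 CPM in LLC1 against 1.48 ± 0.194 CPM in MLE12 (1.00 ± 0.15, adjusted p = 8.2e-06). The third listed target, Pklr, had too few counts to be tested.

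Listed MYC-activated targets were more often higher in LLC1, in a list chosen with earlier results of these data known. Of 36 tested, 27 were called toward LLC1, 7 toward MLE12 and 2 in neither direction, with a median log2 fold change of 0.61, against 40.7% of all genes higher in LLC1 and a median of 0.02. Toward MLE12 the share of all genes was 40.9%. Past 2-fold were 6 toward LLC1, the same share as the 16.7% of all genes, and 1 toward MLE12, against 16.9% of all genes. The glycolytic enzyme gene Hk2 had 141 ± 3.98 CPM in LLC1 against 13.3 ± 0.454 CPM in MLE12 (3.41 ± 0.05). Shmt2, an enzyme of mitochondrial one-carbon metabolism, had 694 ± 29.4 CPM in LLC1 against 210 ± 4.34 CPM in MLE12 (1.73 ± 0.04). Tfap4, a transcription factor directly induced by MYC, had a log2 fold change of 1.42 ± 0.06. Of 3 further targets named after their values were seen, the nucleolar protein gene Ncl had 2685 ± 168 CPM in LLC1 against 1384 ± 97.9 CPM in MLE12 (0.96 ± 0.06), and Npm1 a log2 fold change of 0.92 ± 0.07. Odc1, the polyamine synthesis enzyme gene, was at 1.05 ± 0.04. Toward MLE12 lay the transferrin receptor gene Tfrc (116 ± 3.79 CPM in LLC1 against 332 ± 23.2 CPM in MLE12; -1.51 ± 0.05), the cyclin gene Ccnd2 (-0.85 ± 0.05) and the phosphatase gene Cdc25a (-0.42 ± 0.05). RefSeq promoters were at hand for 29 of the 36 targets, of which 8 (27.6%) held CACGTG. The share was 8.09% of all genes with a promoter in the table and 11.3% of the 11129 tested genes with one. The median log2 fold change was 0.67 for these 8 and 0.62 for the other 21.

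Of 8 listed MYC-repressed targets, 5 were called toward LLC1 and 3 toward MLE12, with a median log2 fold change of 0.96, against 40.7% of all genes toward LLC1 and 40.9% toward MLE12. Those higher in LLC1 included the growth arrest gene Gas1 (26.6 ± 1.76 CPM in LLC1 against 0.146 ± 0.0861 CPM in MLE12; 7.59 ± 0.16), Cdkn1a and the stress gene Gadd45a (2.48 ± 0.06). Those higher in MLE12 were the p15 gene Cdkn2b (0.127 ± 0.0296 CPM in LLC1 against 34.2 ± 2.09 CPM in MLE12; -8.06 ± 0.12), the thrombospondin gene Thbs1 (-5.36 ± 0.09) and the p27 gene Cdkn1b (-0.68 ± 0.06). The members of this list thus spread widely on both sides.

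MYC cofactors, the machinery that MYC recruits to chromatin, divided by small amounts. Of 12 tested, 6 were called toward LLC1, 5 toward MLE12 and 1 in neither direction, with a median of 0.04. Of all genes 81.6% were called, 40.7% toward LLC1 and 40.9% toward MLE12. None of the 12 passed 2-fold, against 33.7% of all genes. The helicase genes Ruvbl2 (192 ± 8.14 CPM in LLC1 against 112 ± 2.76 CPM in MLE12; 0.77 ± 0.04) and Ruvbl1 (0.70 ± 0.04) and the elongation kinase gene Cdk9 (0.66 ± 0.04) were higher in LLC1. Hcfc1, a MYC-binding chromatin factor (-0.82 ± 0.06), the remodeller gene Ep400 (-0.32 ± 0.05) and Zbtb17, which encodes the repression partner MIZ1 (-0.32 ± 0.06), were higher in MLE12.

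SIN3 and histone deacetylase genes, the corepressor of MXD and MNT, were more often higher in MLE12. This list too was chosen with earlier results of these data known. Of 12 tested, 2 were called toward LLC1, 9 toward MLE12 and 1 in neither direction, with a median of -0.28. Of all genes 40.7% were called toward LLC1 and 40.9% toward MLE12, and 33.7% passed 2-fold, which none of the 12 did. Sin3b, a scaffold that the MXD proteins bind, had 94.8 ± 4.46 CPM in LLC1 against 186.5 ± 4.94 CPM in MLE12 (-0.98 ± 0.04). Sap18 (-0.96 ± 0.04) and Arid4b (-0.67 ± 0.06) followed it, while Suds3 (0.44 ± 0.04) and Hdac1 (0.16 ± 0.04) were higher in LLC1. Genes of MYC protein turnover were on both sides, 8 toward LLC1, 7 toward MLE12 and 1 uncalled of 16 tested (median 0.07), against 81.6% of all genes called and a near even split of these. C330027C09Rik, the CIP2A gene, whose product protects MYC from dephosphorylation, was the only one past 2-fold (57.3 ± 3.40 CPM in LLC1 against 163 ± 13.9 CPM in MLE12; -1.50 ± 0.06). Gsk3b, the kinase gene that marks MYC for decay (-0.63 ± 0.04), was also higher in MLE12. The deubiquitinase gene Usp28 (0.73 ± 0.05) and the ubiquitin ligase genes Stub1 (0.60 ± 0.05) and Btrc (0.50 ± 0.06) were higher in LLC1.

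**Figure D5:**
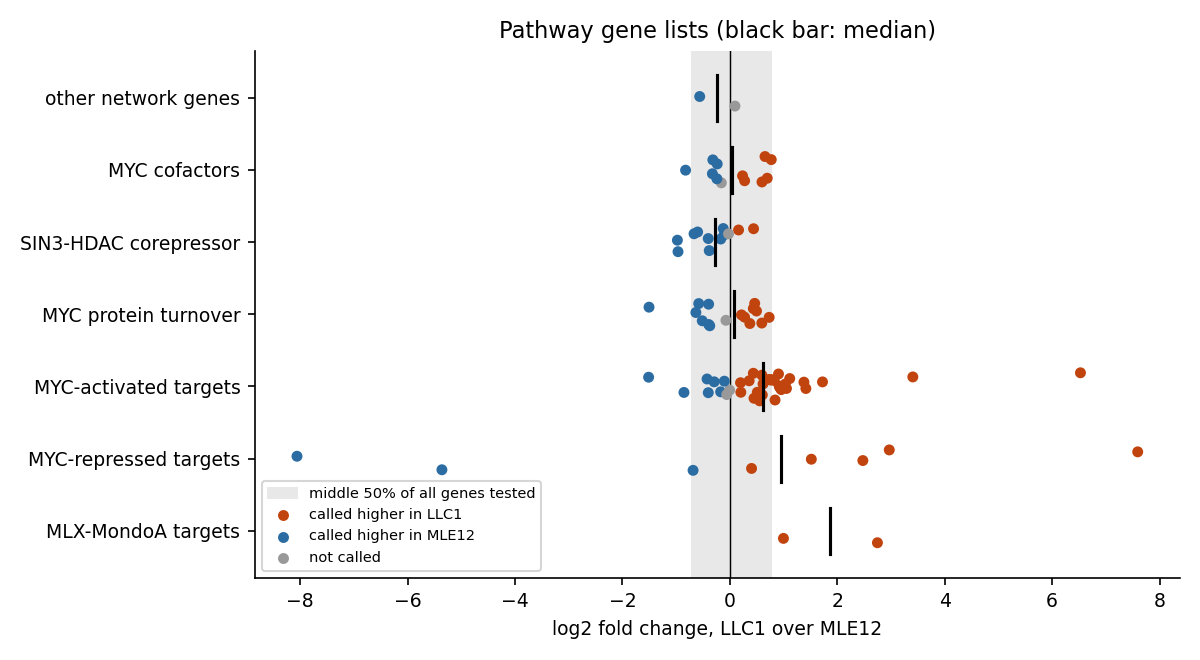
Log2 fold change, LLC1 over MLE12, of each tested member of the 7 pathway lists, coloured by call, with the median of each list as a black bar and the middle 50% of all genes tested shaded (-0.71 to 0.77). Cofactor, corepressor and turnover genes cluster around 0, and MYC-activated targets lie mostly to the right with a median of 0.61. The lists were chosen with earlier results of these data known.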

How the data were processed

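Poly-A RNA of 8 libraries was sequenced as paired-end reads of 100 nt, per the labels' protocols, and no strand-marking step is named there. Raw counts per Ensembl gene, with a gene length, make up the deposited table. The authors used CASAVA, TopHat2, featureCounts and edgeR with build mm10, per the submitters' processing notes. Versions, the annotation release, the strand setting and the handling of multiply aligned reads are not given in the sources used here. More genes had a count of 2 than of 1 in every library (1392 against 1130 in LLC1 replicate 1), so single counts may not be independent molecules. Counting intervals and floors cover counting error at most, and may be too narrow even for that.

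Lines were compared with edgeR 4.0.16 in R 4.3.3 on all 18546 genes kept by filterByExpr (TMM factors, glmQLFit with robust estimation, glmQLFTest, no covariates), with Benjamini-Hochberg adjustment and a threshold of 0.05. A second test, glmTreat, used a minimum fold of 2. CPM use TMM-scaled totals. Strands, biotypes and shared exonic bases are from GENCODE M21. Whether the 4 libraries of a line are separate cultures is not in the labels, so the p-values rest on a spread that may be technical. Libraries of one line differed beyond sampling noise (chi-square over its degrees of freedom, 6.81 to 58.4). On simulated data for the same 18546 genes the fit called 48 of 50 genes changed 1.5-fold, 48 of 50 changed 2-fold, and 9 of 18346 unchanged genes. The simulation changed only 200 genes, evenly in both directions, all drawn from genes above 1 CPM in MLE12. Its recovery of changes in lower genes was thus not examined. Its counts need not hold for lines in which 81.6% of genes passed. Named genes are the members, up to 3 called genes per direction and list with at least 10 CPM in the higher line (near Myc, 1 CPM), and the 5 genes most like Myc. One gene that this rule names is not reported here. The members and lists were chosen with earlier results of these data known. Alternatives were DESeq2 1.42.0, limma-voom (limma 3.58.1), other scalings and filters, removal of the 20 most abundant genes, a replicate block, each library left out and, added after seeing the data, GENCODE M21 exon lengths for levels per kb.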

Additional observations from a re-analysis of the deposited data

Results flagged for a closer look

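Mxd1 in LLC1 held 1 library apart from the others: LLC1 replicate 4 had 6.69 CPM, against 5.03 to 5.27 CPM in the other 3 LLC1 libraries, a gap of 0.857 of the line's whole range. This is above the 95% limit of Dixon's test for 4 samples, which chance passes in about 1 of 20 groups, and 10 members in 2 lines were looked at. Without LLC1 replicate 4 the log2 fold change of Mxd1 was -1.40, against -1.31 with all libraries.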

How the results depend on the processing

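All 17 alternatives left 9 of the 10 members on their side of 0 and past the threshold. Mxd3, which had not passed, was level between the lines with upper-quartile factors (1.0e-04, adjusted p = 1). It passed at -0.16 with library totals alone (adjusted p = 0.016), the only setting in which 5 members were called higher in MLE12. The Mnt value fell under 2-fold (0.98) with library totals. Leaving out each library gave log2 fold changes of 2.99 to 3.04 for Myc, 4.49 to 4.56 for Pvt1, -6.53 to -5.70 for Mycn, 0.33 to 0.42 for Max and -0.09 to -0.03 for Mxd3. Over all alternatives 6478 to 8609 genes were called higher in LLC1 and 6390 to 8817 higher in MLE12. Lengths of GENCODE M21 exons, added after seeing the data, gave 2.64 in LLC1 and 0.343 in MLE12 for the ratio of Myc plus Mycn to the antagonists, against 2.20 in LLC1 and 0.231 in MLE12, and an Mxd4 share of 5.12% in LLC1 and 30.6% in MLE12. With them the difference of LLC1 minus MLE12 turned to 1.15 CPM per kb for the antagonists' sum, against -12.3, with overlapping lines, and to -2.39 percentage points for the Mxd3 share, against 5.03. With the replicate block 7380 genes were called higher in LLC1 and 7415 higher in MLE12, and the members' calls were 5 and 4, as without it. The labels do not say whether the numbers pair the samples. Same-numbered libraries correlated from -0.20 to 0.16 in their deviations, and 4 of 8 libraries correlated best with their own number. These weak correlations do not settle a pairing. Depth limits Mycn in LLC1, where 4 counts in all leave its fold uncertain.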
